A study of Gallus gallus with 3 samples.

Results

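The genes described here, kinase and phosphatase genes for short, belong to kinase and phosphatase signalling families in DT40 cells, together with CTNNB1. They were chosen by the chicken gene symbol that belongs to each probe's RefSeq accession: symbols starting with MAPK, MAP2K, MAP3K, MAP4K, PIK3, AKT, PRKA, PRKC, PPP1 to PPP6, PTPN, DUSP, CAMK, GSK3 or ADCY, and CTNNB1 by name, with 3 genes set apart by name. The rule gave 56 of the 3827 genes that could be named, on 57 probes; GSK3 genes were not analysed here. The prefixes also caught genes that encode neither a protein kinase nor a phosphatase, such as adenylyl cyclases, subunits of phosphoinositide 3-kinase and regulatory subunits. Others were adaptors and partners such as PIK3AP1 and MAPKAP1, and ADCYAP1, which encodes the neuropeptide PACAP, a ligand that acts through adenylyl cyclase.

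DT40 is a chicken B cell line from a bursal lymphoma. Its cells were left untreated (0 µg/ml) or were exposed for 4 h to BP5 at 0.02 µg/ml or to BSP-II at 2 µg/ml, both peptides of the bursa of Fabricius, where the B cells of birds mature; all 3 groups were grown in the same medium with bovine and avian serum. Each group was represented by 1 one-colour Agilent array, so every difference lacks a replicate check, and neither p-values nor standard deviations exist. The ± beside a ratio is the spot error that the scanner software reported, combined over both arrays; it covers neither culture nor labelling.

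Protein kinases add phosphate to proteins and phosphatases remove it. Mitogen-activated protein kinases form tiers in which a MAP3K activates a MAP2K and a MAP2K activates a MAPK, and dual-specificity phosphatases switch the last tier off. In B cells the antigen receptor feeds into this cascade, into phosphoinositide 3-kinase and AKT, into protein kinase C and, through calcium, into calcineurin and the calmodulin-dependent kinases, while beta-catenin carries Wnt signals to the nucleus and is itself marked for destruction by phosphorylation.

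The arrays shared 1 slide. Scan 1 held the untreated array and scan 2 the arrays of both peptides, so in any comparison with untreated cells the scan and the treatment cannot be told apart. The processed signal at the 75th percentile was 255 for untreated cells, 179 for BP5 and 154 for BSP-II, and values below are log2 signals after subtraction of this percentile unless called signals. A probe counts as measured in a comparison when the scanner software called it well above background on both arrays. Of 11 B cell markers on the array, 7 were well above background in untreated cells, among them BTK, SYK and POU2AF1. On each peptide array 6 were, without LYN. The defining markers PAX5, EBF1 and CD79B, and also CD40, were not so on any array. Of 7 T cell markers 2 were detected, CD3D and CD247, and of 5 macrophage and granulocyte markers 3, namely CTSS, LYZ and CEBPB. Of 7 fibroblast, epithelial and endothelial markers 2 were detected on every array, EPCAM and CDH1. The 2 erythroid and thrombocyte markers, TAL1 and TUBB1, were detected in untreated cells, and only TUBB1 on the peptide arrays. The part of these markers in the results was not tested.

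Most of the family was transcribed at a level the arrays could measure. On the untreated array 49 of the 56 genes (87.5%) were well above background, against 73.0% of all named genes. The counts were 46 (82.1%, against 67.7%) on the BP5 array and 45 (80.4%, against 68.6%) on the BSP-II array. The 7 genes not detected on any array were AKT1, PIK3R2, PRKAA2, PRKCA, PRKCD, PPP4R4 and DUSP4. In this set 45 genes were measured on all 3 arrays.

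With BP5, 1 of 46 measured genes (CTNNB1, 2.17%) was higher than in untreated cells by 2-fold or more and 0 were lower, where 2.91% of 2578 named genes were higher, 3.76% lower and 6.67% either. CTNNB1 is in the set by name, and no gene taken by its prefix passed 2-fold with BP5. At 1.5-fold the counts were 3 higher and 4 lower (15.2%), where 8.3% of named genes were higher, 10.8% lower and 19.1% either. With BSP-II, 2 of 45 (ADCYAP1 and CAMK2A, 4.44%) passed 2-fold upward and 0 downward, where 2.79% of 2615 named genes were higher, 2.14% lower and 4.93% either. At 1.5-fold 3 were higher and 6 lower, where 9.9% of named genes were higher, 6.85% lower and 16.7% either. The median log2 ratio of the family was -0.06 with BP5 (all named genes -0.09) and 0.04 with BSP-II (all named genes 0.01). The interquartile range of its ratios was 0.46 with BP5 (all named genes 0.57) and 0.54 with BSP-II (0.54). The medians lie near those of all named genes. With BSP-II the 6 of 45 lower genes at 1.5-fold are a larger share than the 6.85% of all named genes, and with BP5 the 1 of 46 past 2-fold is a smaller share than the 6.67%; neither difference was tested.

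**Figure D1:**
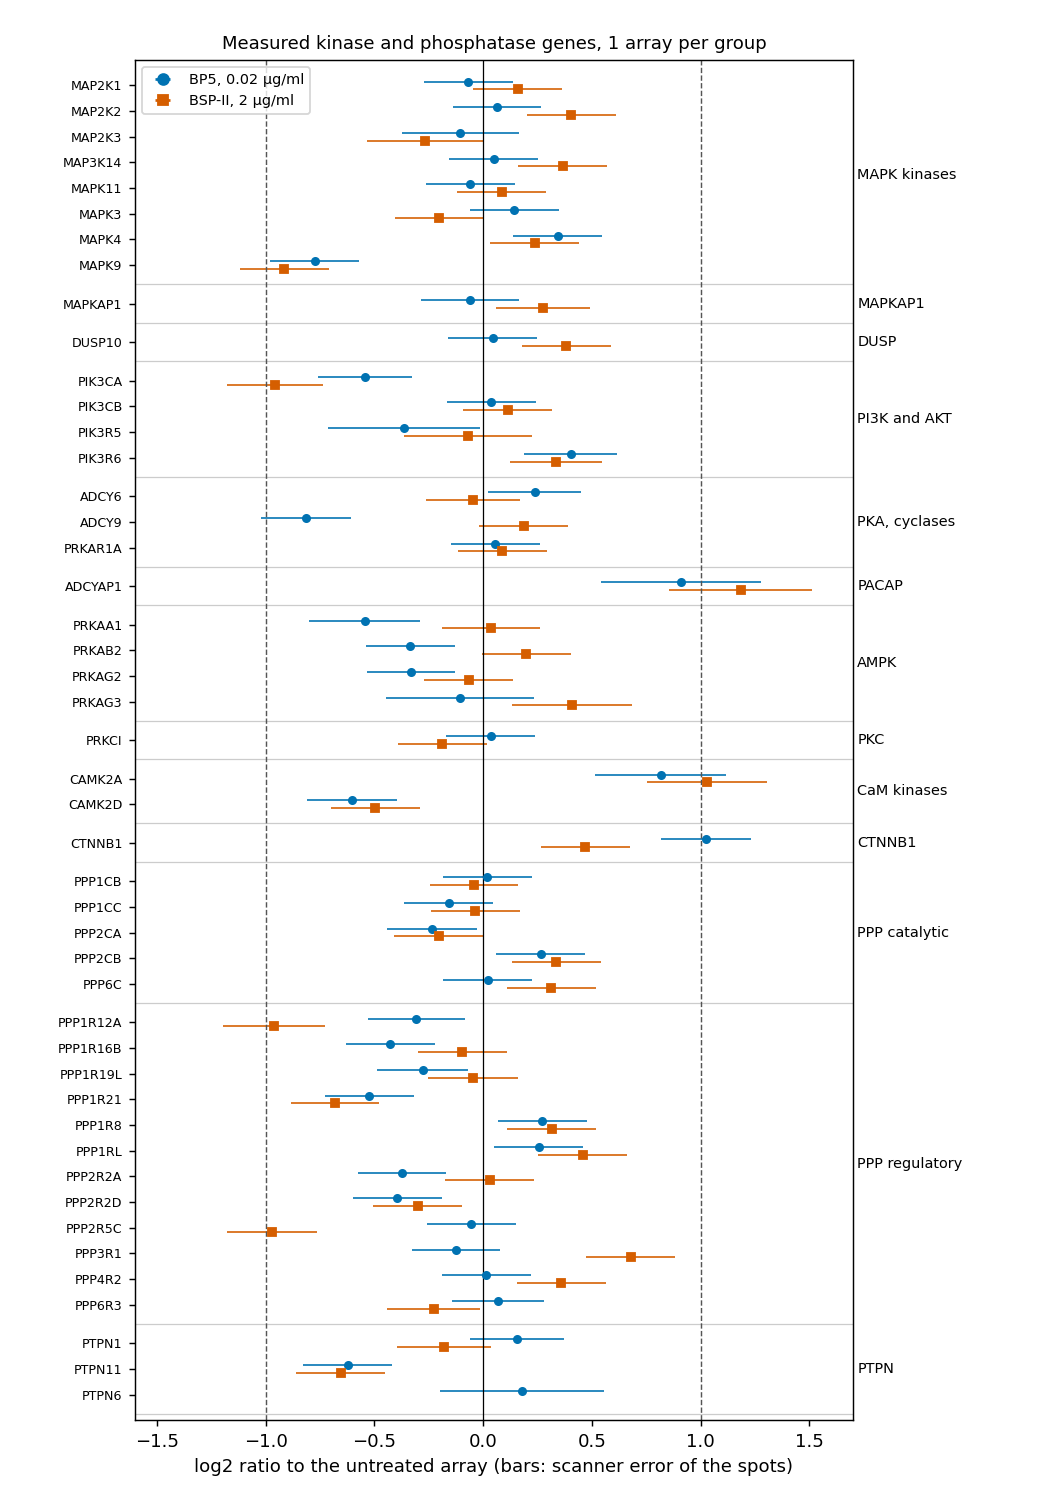
Log2 ratio to the untreated array (x axis) for each of the 46 measured genes (y axis, grouped by role at the right), with BP5 as circles and BSP-II as squares; bars are the scanner error and dashed lines mark 2-fold. Most genes lie within 1.5-fold of the untreated array, and CTNNB1, ADCYAP1 and CAMK2A are the genes on or past the upper dashed line.

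**Figure D2:**
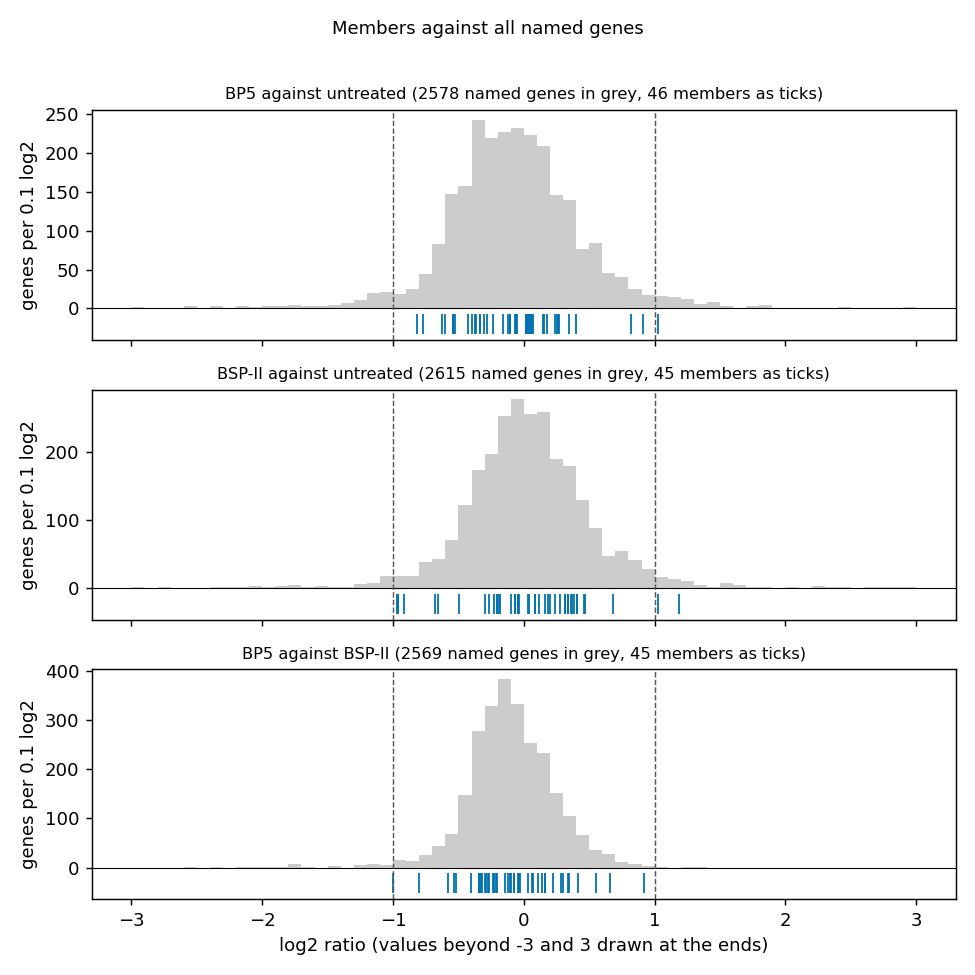
Histogram of log2 ratios of all named genes (grey, genes per bin of 0.1) with the kinase and phosphatase genes as ticks below, for the 3 comparisons; dashed lines mark 2-fold. The ticks cover the same range as the bulk of the histogram, and 1, 2 and 1 of them reach a dashed line from top to bottom.

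Among the kinases of the MAPK cascade, 8 genes were measured and 0 passed 2-fold with either peptide. MAPK9, a JNK family kinase, stood lowest. Its signal was 2127 in untreated cells, 873 with BP5 and 683 with BSP-II, or 3.06, 2.29 and 2.15 after scaling. Both peptide arrays thus read lower than the untreated array, by log2 ratios of -0.77 ± 0.20 and -0.91 ± 0.20, that is 1.71-fold and 1.88-fold. The probes around it on the array had median ratios of -0.10 and -0.15, and after these were subtracted MAPK9 was at -0.67 and -0.77. Under normexp, another background correction, it was at -0.46 and -0.60 and still the lowest of the 8.

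The ratios of the other 7 cascade kinases ran from -0.10 to 0.34 with BP5 and from -0.27 to 0.41 with BSP-II. MAP2K1 and MAP2K2, the kinases directly above ERK, were at -0.07 ± 0.20 and 0.06 ± 0.20 with BP5 and at 0.16 ± 0.20 and 0.41 ± 0.20 with BSP-II. MAPK3, an ERK kinase, had signals of 1253, 971 and 659 in the order untreated, BP5 and BSP-II, and ratios of 0.14 ± 0.20 and -0.20 ± 0.20. The stress kinases MAP2K3 and MAPK11 of the p38 branch were at -0.10 and -0.06 with BP5 and at -0.27 and 0.09 with BSP-II. MAP3K14, which drives the alternative NF-kB pathway, was at 0.05 and 0.37, and the atypical kinase MAPK4 at 0.34 and 0.24. Under normexp MAPK4 was at 0.65 with BP5 and MAP2K2 at 0.72 with BSP-II, where the median of all named genes was 0.11 and 0.17. After subtraction of the neighbouring probes MAPK4 was at 0.09 with BP5 and -0.06 with BSP-II, and MAP2K2 at 0.10 and 0.25. MAPKAP1, a subunit of the mTOR complex that phosphorylates AKT, had ratios of -0.06 ± 0.23 and 0.28 ± 0.22.

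Of 3 dual-specificity phosphatases, DUSP10, which acts on JNK and p38, was measured on all arrays. Its signals were 1786, 1291 and 1408 and its ratios 0.04 ± 0.20 with BP5 and 0.38 ± 0.20 with BSP-II. DUSP14 had a signal of 84.8 in untreated cells and was not well above background with either peptide (22.0 and 34.9). Set against the dimmest probe that was well above background on each peptide array, it was at least 1.21-fold lower with BP5 and at least 1.40-fold lower with BSP-II. DUSP4 was not detected.

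Of 7 genes of phosphoinositide 3-kinase and AKT, 4 were measured. PIK3CA, a catalytic subunit of the class that receptors activate, had signals of 419 in untreated cells, 202 with BP5 and 130.3 with BSP-II, scaled to 0.72, 0.17 and -0.24. The untreated array was highest and the BSP-II array lowest. Its ratios were -0.54 ± 0.22 with BP5 and -0.96 ± 0.22 with BSP-II (1.94-fold lower), where 63 of 2615 named genes had a ratio at least as low. After subtraction of the neighbouring probes the BSP-II ratio was -1.03, past 2-fold, and under normexp it was -0.58. PIK3CB, the other catalytic subunit measured here, had signals of 1385, 997 and 905 and ratios of 0.04 ± 0.20 and 0.11 ± 0.20.

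The regulatory subunits PIK3R5 and PIK3R6, partners of the G protein-coupled form of the enzyme, had ratios of -0.37 ± 0.35 and 0.40 ± 0.21 with BP5 and of -0.07 ± 0.29 and 0.33 ± 0.21 with BSP-II. PIK3R5 was the only one of the 56 genes with 2 probes, and its second probe was not well above background on any array. PIK3AP1, the adaptor that couples the B cell receptor to the enzyme, read 30.4 in untreated cells, next to 30.2, the dimmest signal accepted as well above background on that array, and was not well above background on the peptide arrays, so no fold is given. AKT1 lay at the floor of the untreated array (6.06) and was not detected.

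With the reported scaling, the only gene of the family called 2-fold apart between the peptides was in the cyclic AMP branch. ADCY9, an adenylyl cyclase, had signals of 1489 in untreated cells, 594 with BP5 and 1025 with BSP-II, scaled to 2.55, 1.73 and 2.73. The BP5 array read lower than both others. Its ratio was -0.81 ± 0.21 with BP5 and 0.19 ± 0.20 with BSP-II. BP5 over BSP-II gave -1.001 ± 0.21, just at the 2-fold limit, and -0.91 after quantile normalization. That ratio was past 2-fold in 2 of 7 other settings, both of which leave its value unchanged. Less the median of all named genes it was -0.89, short of 2-fold, where PPP2R5C was at 1.03. The cyclase ADCY6 was at 0.24 ± 0.22 and -0.05 ± 0.22, and PRKAR1A, a regulatory subunit of protein kinase A, at 0.06 ± 0.20 and 0.09 ± 0.20.

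ADCYAP1 had the highest ratio of the 45 genes measured with BSP-II. Its signals were 45.3 in untreated cells, 59.6 with BP5 and 62.2 with BSP-II, scaled to -2.49, -1.58 and -1.31, and both peptide arrays read higher. The ratios were 0.91 ± 0.37 and 1.18 ± 0.33, that is 1.88-fold and 2.27-fold. At so dim a signal the comparison could not show an unchanged or lower level. The dimmest probe well above background read 49.1 with BP5 and 36.7 with BSP-II, so that with its untreated signal ADCYAP1 could not have been measured at a ratio below 0.63 and 0.42. Under normexp, which keeps an offset of 50 in every signal, the ratios were 0.05 and 0.11. The medians of all named genes were then higher, at 0.11 and 0.17.

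CAMK2A, a subunit of calcium/calmodulin-dependent kinase II, was also dim. Its signals were 65.4, 80.8 and 80.7, scaled to -1.96, -1.15 and -0.93, with ratios of 0.82 ± 0.30 and 1.03 ± 0.28 (1.76-fold and 2.04-fold). Both peptide arrays again read higher than the untreated one. With its untreated signal the lowest ratios that could have been measured for it were 0.10 with BP5 and -0.11 with BSP-II. Under normexp the ratios were -0.09 and 0.19, where the medians of all named genes were 0.11 and 0.17. Both genes past 2-fold with BSP-II were among the 4 of 45 with an untreated signal below 100. Of all 173 named genes below 100, 18.5% were at least 2-fold higher with BSP-II and 0 lower. At 100 or more, 1.68% of named genes were higher and 2.29% lower. For ADCYAP1 and CAMK2A the detection filter left little or no room for a ratio below 0. The lowest measurable BSP-II ratio was -0.67 for PIK3R5 and -0.50 for PRKAG3, which were also below 100.

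CAMK2D, the better measured subunit of the same kinase, went the other way. Its signals were 1089.9, 504 and 468, scaled to 2.10, 1.49 and 1.60. Both peptide arrays read lower than the untreated one, with ratios of -0.60 ± 0.21 and -0.50 ± 0.21, and -0.79 and -0.74 after subtraction of the neighbouring probes. Under normexp the BP5 ratio was -0.33. That ratio kept its sign under all 7 other processing settings but was at least 1.5-fold lower in only 3 of them. Leaving out the dim filter or the outermost columns could not change it, so of those 3 only neighbour subtraction gave a new value. Quantile normalization, scaling over detected probes and the authors' deposited values gave -0.50, -0.47 and -0.50. The median of all named genes with BP5 was then 0.004, 0.038 and 0.004, against -0.09 with the reported scaling. Less that median, the reported BP5 ratio of CAMK2D was itself -0.51, short of 1.5-fold. CAMK2B was well above background in untreated cells only, at a signal of 33.2 too near the limit for a fold.

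**Figure D3:**
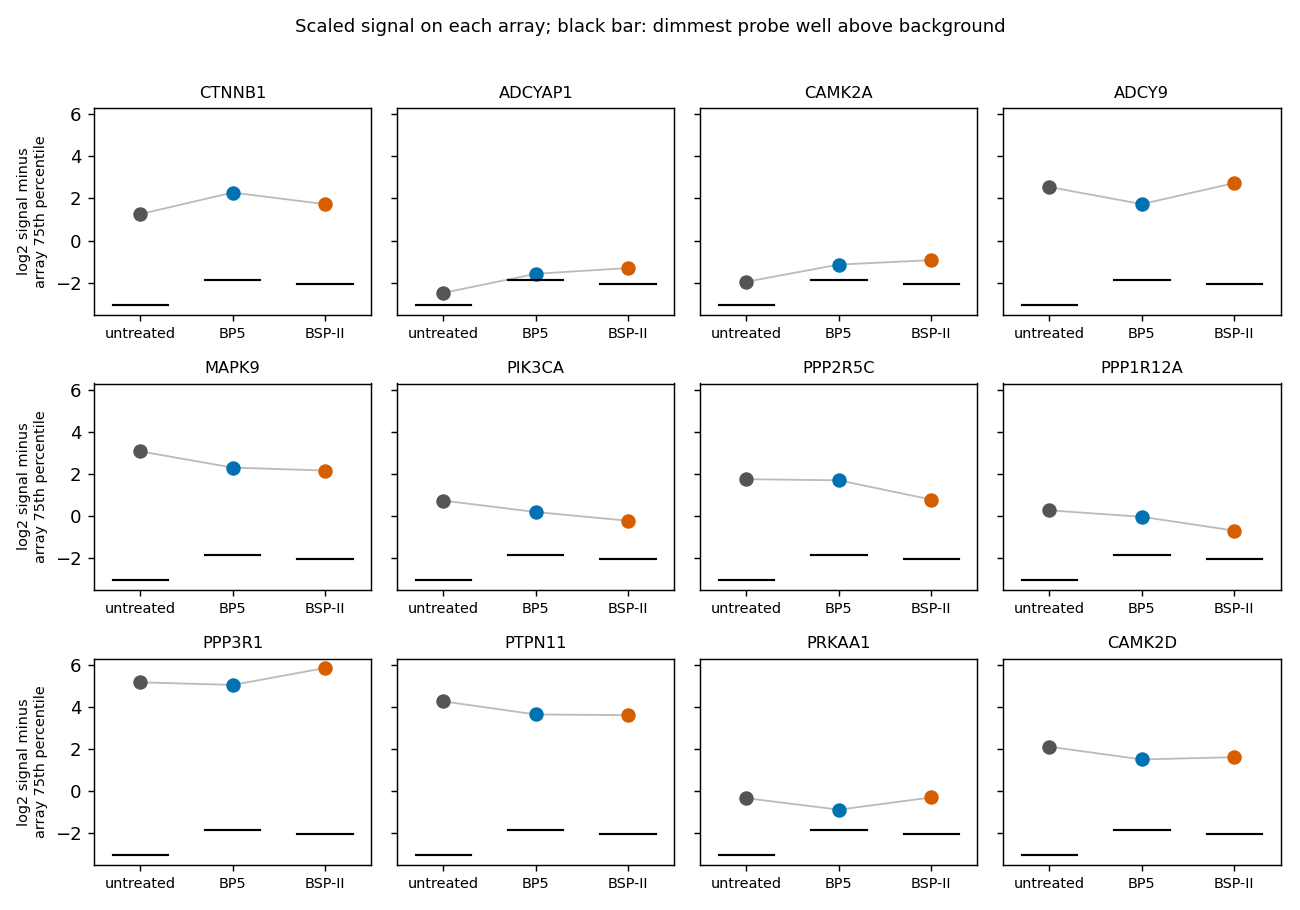
Scaled signal (log2 signal minus the array's 75th percentile, y axis) of 12 genes on the untreated, BP5 and BSP-II arrays (x axis); each point is 1 array and the black bar is the dimmest probe called well above background on that array. ADCYAP1 and CAMK2A lie close to the bars, and the bar of the untreated array is lower than those of both peptide arrays.

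CTNNB1 encodes beta-catenin, the nuclear effector of Wnt signalling and a component of cell junctions. Its signals were 609 in untreated cells, 869 with BP5 and 511 with BSP-II, scaled to 1.26, 2.28 and 1.73. Of the genes with an untreated signal above 100 it was the only one whose unscaled signal was higher with BP5 than without. The ratio was 1.02 ± 0.21 with BP5 (2.03-fold), where 73 of 2578 named genes were at least as high, and 0.47 ± 0.21 with BSP-II. After subtraction of the neighbouring probes, whose median ratios were 0.25 and 0.37, CTNNB1 was at 0.77 with BP5, no longer past 2-fold, and at 0.10 with BSP-II.

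The AMP-activated kinase, an energy sensor, is built from a catalytic alpha, a scaffold beta and a nucleotide-binding gamma subunit, and 4 of its 5 genes on the array were measured. PRKAA1, the alpha subunit, had signals of 199.8 in untreated cells, 96.1 with BP5 and 124 with BSP-II and ratios of -0.54 ± 0.26 and 0.04 ± 0.23. PRKAB2 was at -0.33 ± 0.20 and 0.20 ± 0.20, PRKAG2 at -0.33 ± 0.20 and -0.07 ± 0.20, and PRKAG3 at -0.11 ± 0.34 and 0.41 ± 0.27. With BP5 all 4 lay below the median of all named genes, except that PRKAG3 lay above it after subtraction of the neighbouring probes. PRKCI, an atypical protein kinase C, was the only measured gene of 3 in its group, at 0.04 ± 0.20 and -0.19 ± 0.20.

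All 5 catalytic subunits of the serine/threonine phosphatases were measured, and their ratios ran from -0.24 (PPP2CA) to 0.26 (PPP2CB) with BP5 and from -0.20 to 0.34, for the same 2 genes, with BSP-II. PPP1CB had signals of 4299, 3055 and 2525 and ratios of 0.02 ± 0.20 and -0.04 ± 0.20. PPP1CC was at -0.16 ± 0.20 and -0.04 ± 0.20. PPP6C was at 0.02 ± 0.20 and 0.31 ± 0.20.

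The regulatory subunits, which decide where and on what these enzymes act, reached larger ratios. With BP5 the 12 measured genes ran from -0.52 (PPP1R21) to 0.27 (PPP1R8), and 0 were past 1.5-fold. With BSP-II they ran from -0.97 (PPP2R5C) to 0.68 (PPP3R1), and 3 were at least 1.5-fold lower and 1 higher. PPP2R5C, a targeting subunit of protein phosphatase 2A, had signals of 849 in untreated cells, 574 with BP5 and 262 with BSP-II, scaled to 1.74, 1.68 and 0.77. The BSP-II array was the low one, with a ratio of -0.97 ± 0.21 (1.96-fold lower), while BP5 gave -0.05 ± 0.21.

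PPP1R12A, the subunit that directs protein phosphatase 1 to myosin, had signals of 304, 172 and 94.3, scaled to 0.25, -0.05 and -0.71. The BSP-II array was again lowest, at -0.96 ± 0.23 (1.95-fold lower), and BP5 gave -0.31 ± 0.22. PPP1R21 was at -0.52 ± 0.20 with BP5 and -0.68 ± 0.20 with BSP-II. Among lower ratios, PPP2R5C and PPP1R12A were the nearest to 2-fold with BSP-II, and ADCY9 and MAPK9 with BP5.

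PPP3R1, the regulatory subunit of the calcium-activated phosphatase calcineurin, was the highest of its group with BSP-II. Its signals were 9137, 5881 and 8848, scaled to 5.16, 5.04 and 5.84, with ratios of -0.12 ± 0.20 for BP5 and 0.68 ± 0.20 for BSP-II. The neighbouring probes had a median of 0.47 with BSP-II, and after their subtraction PPP3R1 was at 0.21. Of the rest, the targeting subunits PPP2R2A and PPP2R2D of protein phosphatase 2A were at -0.37 ± 0.20 and -0.40 ± 0.20 with BP5 and at 0.03 ± 0.20 and -0.30 ± 0.20 with BSP-II. PPP1R16B, PPP1R19L, PPP1R8, PPP1RL, PPP4R2 and PPP6R3 lay between -0.43 and 0.46 in both comparisons.

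Of 3 tyrosine phosphatases, PTPN11, which relays growth factor signals to the RAS pathway, had signals of 4871, 2219 and 1870.1, scaled to 4.26, 3.63 and 3.60. Both peptide arrays read lower than the untreated array, by ratios of -0.62 ± 0.20 and -0.66 ± 0.20 (1.54-fold and 1.58-fold). After subtraction of the neighbouring probes they were -0.37 and -0.49, and under normexp -0.26 and -0.31, all below 1.5-fold. The probe lies in the outermost 2 columns, so 6 other settings gave a ratio. With BP5 it was at least 1.5-fold lower in 1 of these 6, the setting without the dim filter, which leaves it unchanged. With BSP-II it was so in 4 of 6. PTPN1 was at 0.16 ± 0.22 and -0.18 ± 0.22. PTPN6, which restrains the B cell receptor, had signals of 62.3, 49.5 and 32.1 and was not well above background with BSP-II, where it was at least 1.03-fold lower, and its BP5 ratio of 0.18 ± 0.38 lay at the lowest value measurable for it, 0.17.

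BP5 was also compared directly with BSP-II, with both arrays in 1 scan. Their doses differed, so peptide and dose cannot be told apart. Of 45 measured genes 0 were higher with BP5 than with BSP-II by 2-fold or more and 1 (ADCY9) was lower, where 0.117% of 2569 named genes were higher, 1.48% lower and 1.6% either. At 1.5-fold 2 were higher and 2 lower (8.89%), where 2.14% of named genes were higher, 5.76% lower and 7.9% either. The median was -0.11 in the family and -0.11 in all named genes. PPP2R5C had a ratio of 0.92 ± 0.21, and 7 of the 2569 named genes had one at least as high. PPP1R12A was at 0.66 ± 0.25, where 32 were at least as high, and CTNNB1 at 0.55 ± 0.21, where 67 were.

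At the low end ADCY9 (-1.001 ± 0.21) and PPP3R1 (-0.80 ± 0.20) stood first, with 38 and 66 named genes at least as low. PPP3R1 had neighbouring probes with a median of -0.41 and was at -0.40 after their subtraction, where ADCY9 was at -0.79, PPP2R5C at 0.90, PPP1R12A at 0.63 and CTNNB1 at 0.76. Next came 3 subunits of the AMP-activated kinase, PRKAA1 at -0.58 ± 0.27, PRKAB2 at -0.53 ± 0.20 and PRKAG3 at -0.52 ± 0.36, while PRKAG2 stood higher in the order at -0.27 ± 0.20. All 4 lay below the median of all named genes in this comparison, also under each of the 7 other processing settings. These settings are not separate checks, since all rest on the same arrays. Scaling over detected probes shifts every gene alike, and leaving out the dim filter or the outermost columns does not change these 4 ratios. Less the median of all named genes, PRKAA1, PRKAB2, PRKAG3 and PRKAG2 were at -0.47, -0.42, -0.41 and -0.15, the last within its scanner error. They form 1 of several role groups, and of the tyrosine phosphatases 2 of 2 measured lay above that median. Whether the shared side of the 4 genes means anything was not tested.

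**Figure D4:**
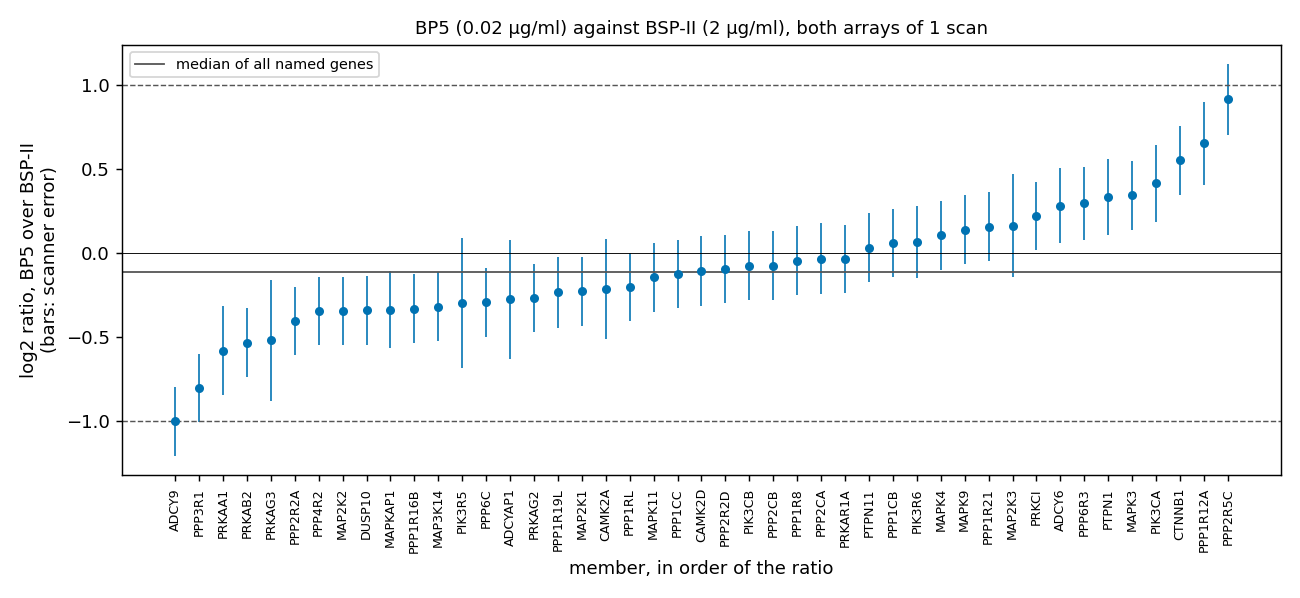
Log2 ratio of BP5 over BSP-II (y axis) for the 45 genes measured on both arrays, in order of the ratio (x axis); bars are the scanner error, the grey line is the median of all named genes and dashed lines mark 2-fold. ADCY9 lies on the lower dashed line and PPP2R5C just under the upper one, and 3 of the 4 AMP-activated kinase subunits stand side by side near the low end.

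Genes of the same pathways outside these families were taken from a list of RAS, mTOR, calcium, Wnt and phosphatase partners, of which 47 were on the array. Of 37 measured with BP5, 0 were higher by 2-fold or more and 1 was lower (2.70%), where 2.91% of all named genes were higher and 3.76% lower. Of 36 measured with BSP-II 0 passed in either direction, where 4.93% of all named genes did. The median ratio of the pathway genes was -0.10 with BP5 and -0.04 with BSP-II. The one past 2-fold was TAB1, an activator of the kinase TAK1 above JNK and p38, with signals of 6568 in untreated cells, 2096 with BP5 and 3435 with BSP-II. The BP5 array was lowest, at -1.14 ± 0.20 (2.20-fold lower), and BSP-II gave -0.21 ± 0.20. After subtraction of the neighbouring probes the BP5 ratio was -0.76. Between the peptides 0 of 36 were called past 2-fold in either direction, where 1.6% of all named genes were. STRADA had a mean ratio of 1.35 but was not called, because its 2 probes differed in sign.

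Position on the array moved with several of these values. The median ratio of the probes within 5 rows and 5 columns of each gene ran from -0.36 to 0.32 with BP5, from -0.33 to 0.50 with BSP-II and from -0.41 to 0.15 between the peptides. After subtraction 3 of 46 genes (ADCYAP1, CAMK2A and CTNNB1) were at least 1.5-fold higher with BP5 and 3 (ADCY9, CAMK2D and MAPK9) lower, where 15.4% of all named genes were past 1.5-fold either way. With BSP-II 2 of 45 (ADCYAP1 and CAMK2A) were higher and 5 (CAMK2D, MAPK9, PIK3CA, PPP1R12A and PPP2R5C) lower, where 13.1% of all named genes were.

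**Figure D5:**
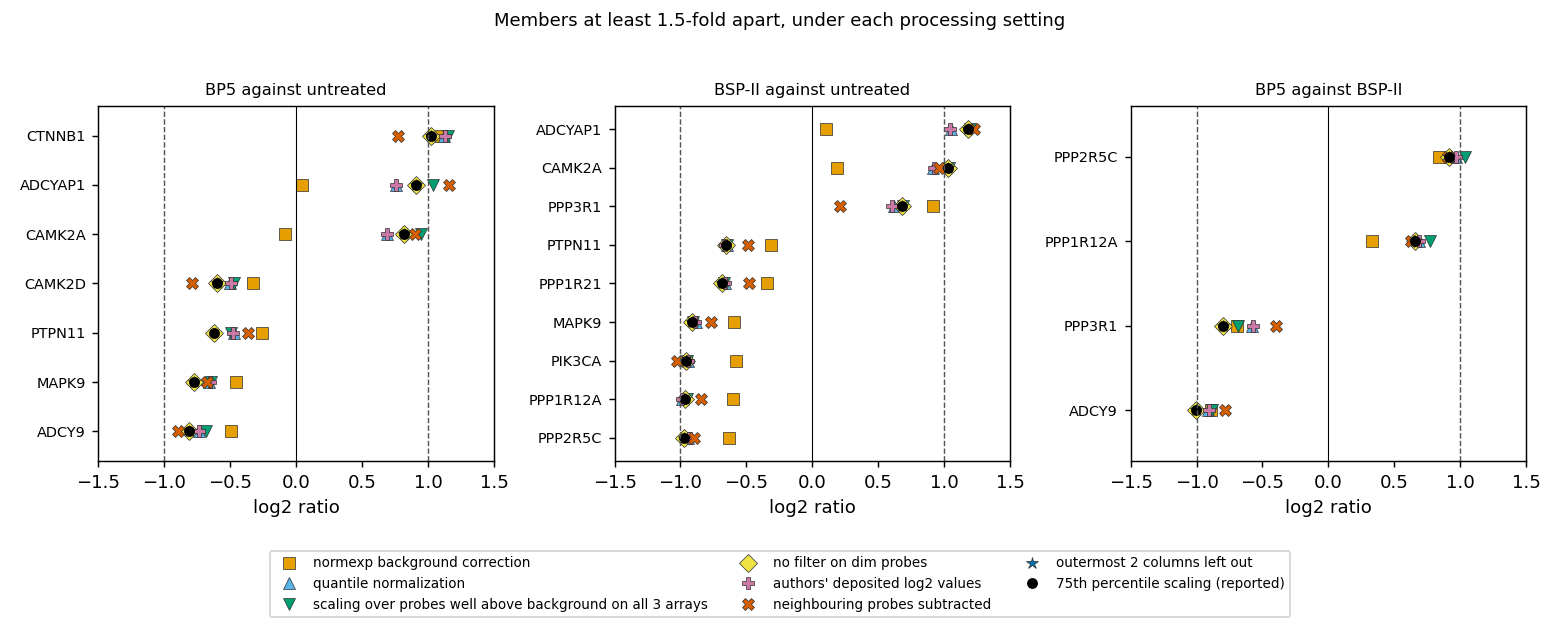
Log2 ratio (x axis) of each gene that was at least 1.5-fold apart (y axis), for the 3 comparisons; black circles are the reported values, other symbols the same ratio under each alternative setting, and dashed lines mark 2-fold. Normexp background correction (squares) brings ADCYAP1 and CAMK2A to near zero, and subtraction of the neighbouring probes (crosses) brings PPP3R1 toward zero; leaving out the outermost columns removes PTPN11, and for the other genes it gives the reported values, hidden behind the circles.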

How the data were processed

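RNA of DT40 cells was hybridised to 3 one-colour arrays, 1 per group. Per the file headers, Agilent Feature Extraction 10.5.1.1 quantified the spots, and the deposited intensity was background-subtracted, spatially detrended and set to a floor where dim, with flags of 0 or 1 as other columns. The authors also deposited log2 values of 20085 probes, whose columns follow the processed intensity of their own arrays (Pearson's r 1.00 on the log2 scale) and share medians of 7.75; their normalization is not stated in the sources used here, and they served as an alternative.

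Outlier flags on any array removed 153 of 42034 probes. RefSeq accessions, compared without their versions with a gene table of GRCg7b (names only), named 4000 of 5017 probes that carry one. Log2 intensity minus each array's 75th percentile over all probes was the measure. A gene's ratio averages its probes detected well above background on both arrays (0 were saturated), and it was called past 2-fold if these probes had the same sign. With 1 array per group no test was possible. The number of arrays limits the precision. The rule for genes given in full took those past 2-fold, the extremes of each role, those nearest to 2-fold, the largest bounds, the 3 largest ratios each way between the peptides, a fixed set of well-known members, members with disagreeing probes, and pathway genes past 2-fold; other members have ratios or ranges only. Members and lists were chosen with earlier results of these data known. Alternatives were normexp (limma 3.58.1, on the spot median signal), quantile normalization, other scaling, no filter on dim probes, the authors' values, subtraction of neighbouring probes, and the outermost 2 columns left out. The steps were tested on simulated data.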

Additional observations from a re-analysis of the deposited data

How the results depend on the processing

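Each group has 1 array, so no paired analysis was possible and no array could be left out. Slide as a block was not run, since all arrays share 1 slide. The settings for the pathway list were added after the data were seen. Without the filter on dim probes, 4 of 56 genes were at least 2-fold higher and 3 lower with BP5. Of all 3827 named genes 760 were then higher and 178 lower. With BSP-II 5 of 56 were higher and 2 lower, where 740 and 127 of the 3827 were. For the pathway list the counts were 4 and 2 with BP5, 4 and 1 with BSP-II, and 1 higher with BP5 than with BSP-II. Genes at the floor of the arrays enter these counts. At 1.5-fold the counts were 3 higher and 4 lower with BP5, 6 lower with BSP-II, and 2 higher and 2 lower between the peptides. Scaling over the probes detected on every array moved the median of all named genes by 0.13 with BP5, by 0.01 with BSP-II and by 0.12 between the peptides; it gave 2 genes higher with BP5, with a family median of 0.0725, and 1 higher (PPP2R5C, 1.03) and 0 lower between the peptides (ADCY9, -0.88). Under normexp, 0 genes were past 2-fold higher with BSP-II and 0 lower between the peptides, the family median with BP5 was 0.13 (all named genes 0.11), and the pathway list gave 0 lower with BP5 and 1 higher with BSP-II. Quantile normalization and the authors' values each gave 1 gene higher with BSP-II (ADCYAP1), 0 lower between the peptides and 0 pathway genes lower with BP5. Subtraction of neighbouring probes gave 1 gene higher (ADCYAP1) and 1 lower (PIK3CA) with BSP-II, 0 lower between the peptides, 0 pathway genes lower with BP5 and 1 lower between the peptides. With BP5 it left 1 gene higher, ADCYAP1 in the place of CTNNB1. The cause of these shifts was not tested. In the comparison in which it was past 2-fold, none of the 4 genes CTNNB1, ADCYAP1, CAMK2A and ADCY9 changed sign under these 7 settings. This is a weak check, since leaving out the dim filter or the outermost columns left all 4 ratios unchanged. Scaling over detected probes shifts every gene alike. With its untreated signal ADCYAP1 could not have been measured below 0.42 with BSP-II, so the filter fixed its reported sign. Under normexp, however, ADCYAP1 with BSP-II was at 0.11 and CAMK2A at 0.19, where the median of all named genes was 0.17. Elsewhere CAMK2A with BP5 went from 0.82 to -0.09 under normexp, and ADCY9 with BSP-II from 0.19 to -0.20 after neighbour subtraction. The median of all named genes moved by 0.20 and 0.15 with BP5 and BSP-II under normexp, and between the peptides by 0.14 under quantile normalization. Over all named genes, 75 were higher and 97 lower with BP5, 73 and 56 with BSP-II, and 3 and 38 between the peptides. In that order these became 41 and 34, 64 and 19, and 1 and 29 under normexp. They were 73 and 85, 60 and 55, and 4 and 31 under quantile normalization. The authors' values gave 74 and 85, 59 and 55, and 4 and 31. Neighbour subtraction gave 78 and 53, 69 and 47, and 5 and 16. Scaling over detected probes gave 97 and 73, 74 and 53, and 8 and 32. With no dim filter 50 and 92 passed between the peptides. Of 136 single ratios, 63 moved by more than their scanner error under normexp, 40 after neighbour subtraction and 5 under quantile normalization.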

Other observations

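Probes of 1 gene could disagree strongly. STRADA, a pseudokinase that activates the kinase above AMP-activated kinase, had 2 probes well above background on all arrays. The first had signals of 6267 in untreated cells, 4791 with BP5 and 5170.0 with BSP-II, and a ratio of BP5 over BSP-II of -0.32. The second had signals of 439.9, 518 and 54.6, and a ratio of 3.03. Because the probes differ in sign, STRADA was not counted as different, although its mean ratio of 1.35 was the highest among the 2569 named genes in that comparison. All but 1 of the 56 kinase and phosphatase genes rest on a single probe, so a disagreement of this kind could not be seen for them. STRADA was singled out after its values were seen.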
